A study of Mus musculus with 6 samples.

Results

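The genes described here are the SREBP-driven genes that build cholesterol and fatty acids, 35 in number, split into a sterol arm of 20 genes and a fatty acid arm of 15. Members were found as non-control array probes whose RefSeq accession belongs to a listed gene, and all 35 were among the 15838 genes that could be tested, out of 20660 genes with a named probe. Each of the 35 was well above background on all 6 arrays. The samples were tumor spheres, cell clusters grown afloat, here made from mouse mammary tumors. One group came from FRS2beta hetero mice, which keep a working allele, and the other from FRS2beta knock-out mice, which have none, with 3 single-colour arrays each. The medium of both groups was DMEM/F12 plus B27, the growth factors EGF and bFGF, and heparin, with no serum named among the components. The allele's construction, the agent or transgene that gave rise to the tumors, and the strain and age of the mice are not given in the sources used here. Nothing in the labels says that the replicates were separate animals, so p-values measure no more than the spread among these arrays, which could be technical.

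Cells make cholesterol from acetyl-CoA by way of mevalonate, squalene and lanosterol, and fatty acids from the same acetyl-CoA by way of malonyl-CoA. SREBPs are membrane-bound transcription factors that are carried from the endoplasmic reticulum to the Golgi and cut free when membrane sterol is low. The SREBP2 protein, from Srebf2, acts mainly on sterol genes, and SREBP1, from Srebf1, mainly on fatty acid genes. Mammary epithelium is known for high lipid synthesis in lactation, and mammary tumors for lipid synthesis of their own.

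Signals are given as scaled log2 signal, the log2 of a probe's signal over the signal of the 75th percentile probe of its array, so each fold change is relative to the rest of its array. Hetero arrays had a 75th percentile signal of 404 to 416 and knockout arrays of 465 to 487, and arrays correlated across genes at 0.995 to 0.998 within a genotype and 0.966 to 0.971 between genotypes. The share of probes well above background was 60.4 to 61.3% on the hetero arrays. It was less even on knockout arrays 1, 2 and 3, at 69.6, 66.7 and 60.5%. Frs3, the gene of FRS2beta, was well above background on 1 of 3 hetero arrays and 0 of 3 knockout arrays, too dim to check the labels. Epithelial markers were well above background on all 6 arrays in 11 of 11 genes, among them Epcam, Krt8 and Krt14. Fibroblast markers were so in 10 of 10 genes.

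With arrays scaled to their 75th percentile, most sterol genes were lower in knockout spheres. Fatty acid genes went both ways, as did genes at large. Under spike-in scaling most genes of both arms were higher. By limma with Benjamini-Hochberg adjustment over all genes, 60.4% of the 15838 genes passed an adjusted p of 0.05, 32.6% lower and 27.8% higher, so a call by itself is common here. Against that, 16 of 20 sterol genes fell (80%), 0 rose and 4 did not pass. In the fatty acid arm 6 of 15 genes fell (40%), 4 rose (26.7%) and 5 did not pass, shares near those of all genes. The median log2 fold change, knockout over hetero, was -0.27 in the sterol arm (1.21-fold lower) and -0.09 in the fatty acid arm (the value of Fasn), against -0.03 over all genes. Sterol genes ranged from -0.70 for Stard4 to 0.05 for Cyp51, with an SD across genes of 0.20, and fatty acid genes from -0.81 for Elovl6 to 0.89 for Scd1, with an SD of 0.47. The arrays of the genotypes did not overlap in 18 sterol and 12 fatty acid genes, a pattern seen in 68.9% of all genes. Most changes were small, for a called change of at least 1.5-fold was seen in 2 sterol genes (Stard4 and Tm7sf2) and 3 fatty acid genes (Scd1, Elovl6 and Acsl1), against 17.9% of all genes. In bulk RNA, fewer cells of a type and less RNA per cell cannot be told apart.

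**Figure D1:**
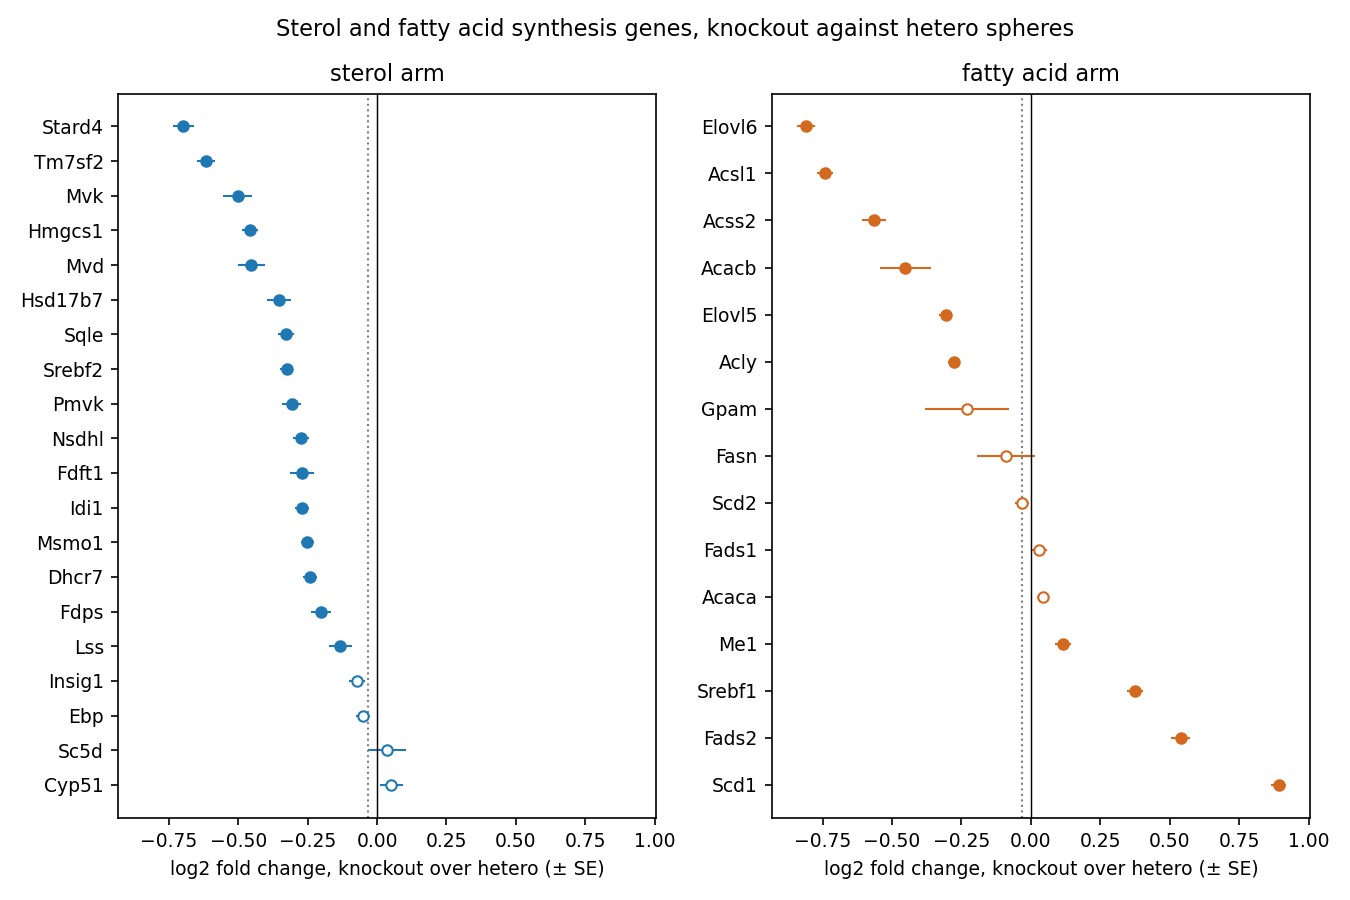
Log2 fold change, knockout over hetero (x axis), of each sterol gene (left) and fatty acid gene (right), with bars for the standard error, filled points for an adjusted p under 0.05 and a dotted line at the median of all genes (-0.03). The 16 filled sterol points all lie left of 0 (from -0.70 to -0.13), while filled fatty acid points lie on both sides (from -0.81 to 0.89); with spike-in scaling every point would move right by 0.42.

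The sign of small changes depended on how arrays were scaled. Scaling to 7 probes for spike-in control RNA moved every log2 fold change up by 0.42. On the knockout arrays the 75th percentile signal was higher and the raw log2 signal of each of these probes lower, with differences of -0.24 to -0.14. Under this scaling 72.4% of all genes were higher and 8.00% lower, and the sterol arm had 14 genes higher and 2 lower (median 0.14) and the fatty acid arm 10 higher and 3 lower (median 0.33). What a constant scaling cannot change is the order of genes. By that order 18 of 20 sterol genes lay below the median of all genes, and 13 of 20 were among the lowest 25% of genes and 0 among the highest 25%. Of the fatty acid genes, 8 of 15 lay below the median, 6 were among the lowest 25% and 3 among the highest. The median sterol gene ranked at percentile 22.6 of all genes and the median fatty acid gene at percentile 42.1. The sterol median was 0.24 below that of all genes with the 75th percentile, median and spike-in scalings, which give the same gap by construction. It was 0.25 below with quantile scaling and 0.20 below with normexp background correction. With the second brightest probe, or with no background filter, it was 0.21 below.

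**Figure D2:**
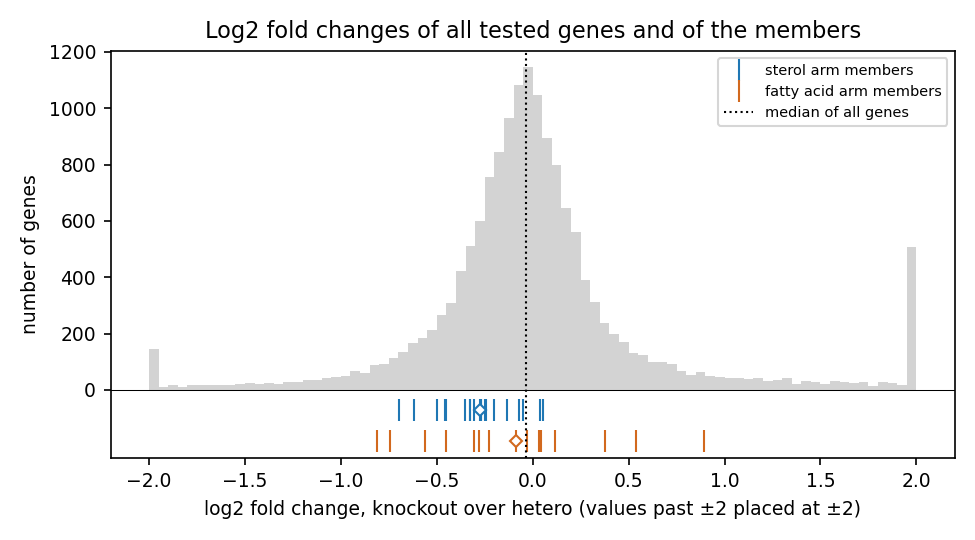
Histogram of the log2 fold changes of all 15838 genes (grey; values past 2 in size are placed at the ends), with a tick below for each sterol gene (blue) and fatty acid gene (orange), a diamond at each arm's median and a dotted line at the median of all genes. The sterol ticks crowd to the left of the dotted line (median -0.27) and the fatty acid ticks spread across it (median -0.09), an order that spike-in scaling leaves as it is while moving all values right.

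The balance between the arms can be read within each array, where a constant scaling cancels. Taking each gene's deviation from its hetero mean, the mean sterol deviation minus the mean fatty acid deviation was 0.01, 0.02 and -0.03 on the hetero arrays and -0.21, -0.18 and -0.17 on the knockout arrays. The groups did not overlap, as was so for 68.9% of single genes, and the share among other pairs of gene sets was not counted. The difference was alike on the 3 knockout arrays. The fatty acid mean takes in single genes from -0.81 (Elovl6) to 0.89 (Scd1), and how far it rests on any of them was not tested. The median sterol deviation was -0.27, -0.28 and -0.28 on the knockout arrays, and the median fatty acid deviation -0.02, -0.11 and -0.09. The fatty acid median over all arrays was the value of a single gene, Fasn (-0.09), and it moved when arrays were left out. It was -0.17 without hetero replicate 1, again the value of Fasn, and -0.02 without hetero replicate 3, the value of Scd2. The sterol median stayed between -0.29 and -0.27 in all 6 leave-one-out fits. No p-value is given for an arm, since its members were chosen together.

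**Figure D3:**
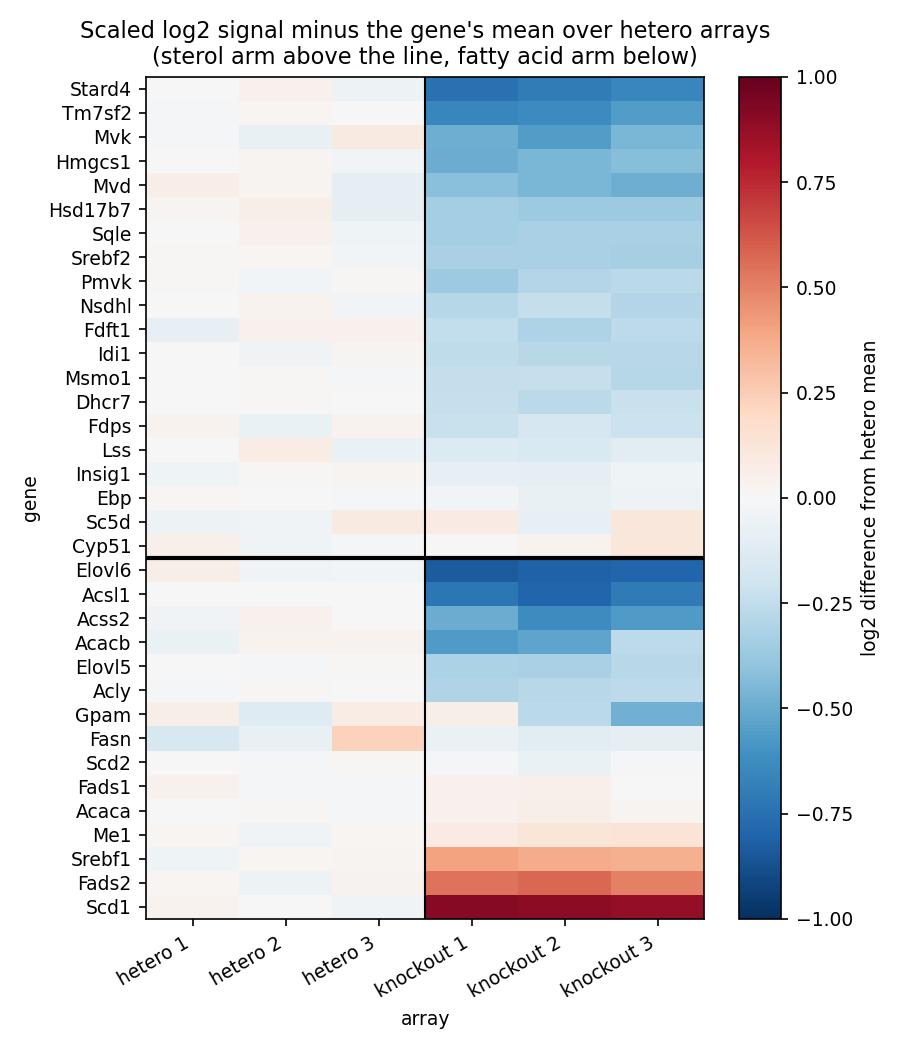
Scaled log2 signal of each member on each of the 6 arrays minus the gene's mean over the hetero arrays (colour, from blue for lower to red for higher), with genes in rows (sterol arm above the black line, fatty acid arm below) and arrays in columns. The sterol block is blue on all 3 knockout arrays except for its last rows, and the fatty acid block runs from blue (Elovl6) to red (Scd1). Spike-in scaling would raise the knockout columns by 0.42 on average, by an amount that differs by array.

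Promoter sequence was looked at because SREBPs are known to need partner sites: they bind sterol regulatory elements beside the CCAAT boxes of NF-Y and the GC boxes of Sp1. RefSeq promoters (GRCm38.p6, 250 bases before to 50 after a start) were held for 28 of the 35 members, 16 sterol and 12 fatty acid genes, with 36 promoters between them; Fdps, Fdft1, Sqle, Stard4, Scd1, Scd2 and Fads1 had no entry. CCAAT, on either strand, was in at least 1 promoter of 16 of 16 sterol genes and 9 of 12 fatty acid genes, against 42.2% of the tested genes with a promoter. Counted by promoter, that was 16 of 19 sterol and 10 of 17 fatty acid promoters, against 37.4% of all 32851 promoters in the table. In the 100 bases just before the start, CCAAT was in 13 of 19 sterol and 7 of 17 fatty acid promoters, against 19.3% of all and 21.2% of those of tested genes. GGGCGG was in 16 of 19 sterol and 8 of 17 fatty acid promoters, against 35.7% of all and 56.2% of those of tested genes. The E-box CACGTG was in 4 sterol promoters and 1 fatty acid promoter, against 7.15% of all. The sterol element was searched as TCACNCCAC (1.24% of all promoters) and as its core CACNCCAC (6.24%), which the longer form contains. The long form was in the Hmgcs1 promoter, 137 bases before the start, and in 1 Acsl1 promoter, 76 bases before the start on the opposite strand, while the core alone was also in Insig1 and Gpam. A match describes letters in this window and shows no binding.

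The promoters below were chosen to show the sterol element (Hmgcs1, Acsl1), the most CCAAT boxes in a single promoter (Mvk), a later sterol enzyme (Msmo1) and the fatty acid synthase gene (Fasn). Each is written 5′ to 3′ on the gene's strand, with capitals for CCAAT or its reverse complement and for the core CACNCCAC on either strand. The Acsl1 promoter is 1 of 2 held for that gene. In the Fasn promoter 2 CCAAT matches on opposite strands overlap.
Hmgcs1, chr13:119690101-119690400, plus strand: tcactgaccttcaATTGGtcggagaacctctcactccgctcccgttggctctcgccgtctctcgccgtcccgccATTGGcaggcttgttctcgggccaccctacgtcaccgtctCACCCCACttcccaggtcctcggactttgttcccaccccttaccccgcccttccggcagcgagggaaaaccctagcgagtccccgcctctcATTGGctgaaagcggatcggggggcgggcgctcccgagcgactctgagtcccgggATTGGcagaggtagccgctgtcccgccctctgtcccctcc
Mvk, chr5:114444019-114444318, plus strand: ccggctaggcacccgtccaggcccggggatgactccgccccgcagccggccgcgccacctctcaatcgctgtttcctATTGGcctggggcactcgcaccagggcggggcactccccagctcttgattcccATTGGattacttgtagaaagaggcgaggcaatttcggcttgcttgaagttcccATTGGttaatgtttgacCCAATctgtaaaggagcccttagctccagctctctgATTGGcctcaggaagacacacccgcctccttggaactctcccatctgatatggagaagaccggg
Msmo1, chr8:64733529-64733828, minus strand: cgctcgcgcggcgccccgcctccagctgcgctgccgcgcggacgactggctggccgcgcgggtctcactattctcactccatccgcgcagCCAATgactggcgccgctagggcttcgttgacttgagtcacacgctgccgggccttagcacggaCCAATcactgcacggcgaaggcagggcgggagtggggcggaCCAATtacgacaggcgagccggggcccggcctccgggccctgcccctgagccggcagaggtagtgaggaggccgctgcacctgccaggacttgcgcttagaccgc
Fasn, chr11:120824498-120824797, minus strand: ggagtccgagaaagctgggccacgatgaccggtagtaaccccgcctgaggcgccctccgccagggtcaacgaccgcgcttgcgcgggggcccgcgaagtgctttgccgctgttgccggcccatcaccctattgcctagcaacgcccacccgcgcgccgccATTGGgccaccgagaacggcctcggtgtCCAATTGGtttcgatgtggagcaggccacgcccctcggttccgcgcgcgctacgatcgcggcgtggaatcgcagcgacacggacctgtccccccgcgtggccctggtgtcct
Acsl1, chr8:46490716-46491015, plus strand: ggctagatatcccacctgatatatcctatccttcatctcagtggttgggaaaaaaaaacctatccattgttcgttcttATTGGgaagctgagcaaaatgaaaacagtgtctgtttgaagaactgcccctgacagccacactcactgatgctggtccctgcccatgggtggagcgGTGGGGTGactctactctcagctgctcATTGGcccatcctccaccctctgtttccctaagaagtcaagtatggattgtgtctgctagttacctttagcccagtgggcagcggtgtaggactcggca
The Mvk promoter held 5 CCAAT matches and the Hmgcs1 promoter 4, and both genes fell, though neither was called with spike-in scaling. Cyp51, with 1 CCAAT match 29 bases before its start, was not called, and Fasn, with 3, was not called either. Tm7sf2 likewise had a single CCAAT match, 47 bases before its start, and fell by 0.62. Whether the number of matches goes with the fold change was not tested.

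Hmgcs1, the synthase that makes HMG-CoA from acetyl units, opens the mevalonate steps, and its promoter is the first shown above. Its scaled log2 signal was 5.41, 5.44 and 5.39 on the hetero arrays and 4.92, 4.95 and 4.99 on the knockout arrays. Hmgcs1 thus fell without overlap, by 0.46 ± 0.03 on the log2 scale (SE; 1.37-fold; limma adjusted p = 7.9e-05). With it, all 6 mevalonate-step genes measured fell, with a median of -0.38, whereas under spike-in scaling 3 rose and 3 were not called. Mvk, mevalonate kinase, fell by 0.50 ± 0.05 (1.42-fold), Pmvk, the next kinase, by 0.31 ± 0.03, and Mvd, the decarboxylase that yields isopentenyl diphosphate, by 0.45 ± 0.05. Idi1, which isomerises that product, fell by 0.27 ± 0.03. Fdps, which joins the units into farnesyl diphosphate, fell least, by 0.20 ± 0.04 (limma adjusted p = 0.0052), and its call was lost with quantile scaling (-0.07, limma adjusted p = 0.15; range over the alternatives 9.4e-05 to 0.15). In rank order 5 of these 6 genes were among the lowest 25% of all genes, a place that spike-in scaling does not alter.

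Farnesyl diphosphate becomes squalene and then lanosterol through Fdft1, Sqle and Lss, and all 3 fell with 75th percentile scaling and rose with spike-in scaling. Sqle, squalene epoxidase, an oxygen-dependent and often rate-limiting step, had signals of 4.62, 4.66 and 4.57 on the hetero arrays and 4.27, 4.29 and 4.29 on the knockout arrays. It fell by 0.33 ± 0.03 (1.25-fold; limma adjusted p = 0.00032), with no overlap between the groups. Fdft1, squalene synthase, fell by 0.27 ± 0.04, but its dimmer probe gave -0.16 with a limma adjusted p of 0.36 (range over the alternatives 4e-05 to 0.36). Lss, lanosterol synthase, fell by 0.13 ± 0.04 (limma adjusted p = 0.038). Its call did not survive leaving out hetero replicate 1 or 2 or any knockout replicate (adjusted p = 0.067 to 0.11; over all alternatives 0.0021 to 0.31).

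The steps from lanosterol to cholesterol were less uniform, for 5 of 8 genes fell and 3 did not pass, while with spike-in scaling 6 rose and 1 fell. Tm7sf2, a sterol reductase that acts right after lanosterol demethylation, had signals of 2.39, 2.42 and 2.40 on the hetero arrays and 1.75, 1.77 and 1.84 on the knockout arrays. This was a fall of 0.62 ± 0.03 (1.53-fold; limma adjusted p = 4.2e-05), and Tm7sf2 stayed lower and called in every alternative, spike-in scaling included (adjusted p up to 0.004). Msmo1, the methylsterol monooxygenase, had signals of 5.04, 5.05 and 5.03 on the hetero arrays and 4.80, 4.81 and 4.76 on the knockout arrays. It fell by 0.25 ± 0.02 (1.19-fold; limma adjusted p = 0.0004). Nsdhl, the decarboxylating dehydrogenase, fell by 0.27 ± 0.03 and Hsd17b7, the ketoreductase, by 0.35 ± 0.04. Dhcr7, a reductase at the end of the pathway, fell by 0.24 ± 0.02. The remaining enzymes gave log2 fold changes of 0.05 ± 0.04 for Cyp51, the lanosterol demethylase, -0.05 ± 0.02 for Ebp, the sterol isomerase, and 0.04 ± 0.07 for Sc5d, the sterol desaturase (limma adjusted p = 0.34, 0.12 and 0.67).

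Srebf2 encodes the factor that drives the sterol genes. Its signals were 1.68, 1.70 and 1.64 on the hetero arrays and 1.35, 1.35 and 1.34 on the knockout arrays, so the groups did not overlap. Srebf2 fell by 0.32 ± 0.02 (1.25-fold; limma adjusted p = 0.00014), and with spike-in scaling it was higher and called, at 0.09 (adjusted p = 0.024). Insig1 holds SREBPs in the endoplasmic reticulum and is itself an SREBP target. Its signals were 0.18, 0.23 and 0.25 on the hetero arrays and 0.14, 0.12 and 0.18 on the knockout arrays, a difference of -0.07 ± 0.03 that did not pass (limma adjusted p = 0.080). The groups of Insig1 did not overlap, though by less than the range within a group. Stard4 carries cholesterol between membranes and is induced by SREBP2. Its signals were 1.26, 1.29 and 1.20 on the hetero arrays and 0.51, 0.56 and 0.60 on the knockout arrays. Stard4 fell by 0.70 ± 0.04 (1.62-fold; limma adjusted p = 4.5e-05), the largest fall of the sterol arm, and stayed lower with spike-in scaling. Its dimmer probe gave -0.24 and did not pass (limma adjusted p = 0.096; range over the alternatives 1.2e-08 to 0.096).

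Of the 3 enzymes that build the fatty acid chain, 1 fell and 2 did not pass, and with spike-in scaling 2 rose and 0 fell. Fasn, the fatty acid synthase, had signals of -0.27, -0.19 and 0.11 on the hetero arrays and -0.18, -0.22 and -0.21 on the knockout arrays. The groups overlapped, hetero replicate 3 stood above all others, and the difference of -0.09 ± 0.10 did not pass (limma adjusted p = 0.49). Without hetero replicate 3 the log2 fold change of Fasn was 0.03. Acaca, the cytosolic acetyl-CoA carboxylase that feeds Fasn, was at 0.04 ± 0.02 (limma adjusted p = 0.15), and it was higher and called with quantile scaling (0.10), with probes averaged (0.13) and with spike-in scaling. Acacb, the mitochondrial carboxylase whose malonyl-CoA restrains fatty acid oxidation, fell by 0.45 ± 0.09 (limma adjusted p = 0.008). Its signals on the knockout arrays were -0.66, -0.62 and -0.35, all below the hetero range of -0.16 to -0.06, and its dimmer probe gave -0.53 with a limma adjusted p of 0.19 (range over the alternatives 0.00054 to 0.75).

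Among the enzymes that supply acetyl-CoA and NADPH, 2 fell and 1 rose, and with spike-in scaling 1 fell and 2 rose. Acss2 makes acetyl-CoA from acetate, and its signals were 1.07, 1.15 and 1.10 on the hetero arrays and 0.61, 0.48 and 0.54 on the knockout arrays. Acss2 fell by 0.56 ± 0.04 (1.48-fold; limma adjusted p = 0.00018), without overlap, and in all 17 alternatives run. Acly, ATP citrate lyase, which makes acetyl-CoA from citrate for both arms, fell by 0.28 ± 0.02 (1.21-fold; limma adjusted p = 0.00019), while a dimmer Acly probe gave -0.06 and did not pass (limma adjusted p = 0.40; range over the alternatives 3.7e-07 to 0.40). Me1, the malic enzyme that makes NADPH, rose by 0.11 ± 0.03 (limma adjusted p = 0.017). Without knockout replicate 2 or 3 the Me1 call was lost (limma adjusted p = 0.056 and 0.057; range over the alternatives 3.4e-05 to 0.13).

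Desaturases and elongases held both the largest rise and the largest fall among the 35 genes. Scd1 puts the double bond into stearate and palmitate, and its signals were 4.23, 4.20 and 4.17 on the hetero arrays and 5.11, 5.09 and 5.08 on the knockout arrays. Scd1 rose by 0.89 ± 0.03 (1.86-fold; limma adjusted p = 4.5e-06). Scd2, a close paralog with the same reaction, was at -0.03 ± 0.02 (limma adjusted p = 0.30) with 75th percentile scaling, 0.14 with quantile scaling and 0.39 with spike-in scaling, the last 2 called. Scd genes are close paralogs, and how far their probes cross-hybridise was not tested. Elovl6 extends palmitate to stearate, and its signals were 3.26, 3.17 and 3.18 on the hetero arrays and 2.38, 2.40 and 2.41 on the knockout arrays. Elovl6 fell by 0.81 ± 0.03 (1.75-fold; limma adjusted p = 1.4e-05). Elovl5 extends polyunsaturated chains, with signals of 3.06, 3.05 and 3.07 on the hetero arrays and 2.75, 2.73 and 2.78 on the knockout arrays. Elovl5 fell by 0.31 ± 0.02 (1.24-fold; limma adjusted p = 0.00015), and with spike-in scaling it was higher and called, at 0.11 (adjusted p = 0.016).

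Fads2 takes the first desaturation of essential fatty acids, and Fads1 a later one. Fads2 signals were -1.86, -1.92 and -1.84 on the hetero arrays and -1.33, -1.30 and -1.37 on the knockout arrays. It rose by 0.54 ± 0.03 (1.45-fold; limma adjusted p = 8.4e-05) and was higher and called in every alternative, though by 0.39 with normexp background correction. Fads1 was at 0.03 ± 0.03 (limma adjusted p = 0.41), with overlapping groups. Acsl1 joins long-chain fatty acids to CoA, and its signals were 1.5, 1.49 and 1.49 on the hetero arrays and 0.77, 0.70 and 0.78 on the knockout arrays. Acsl1 fell by 0.74 ± 0.03 (1.67-fold; limma adjusted p = 1.5e-05), and a dimmer Acsl1 probe gave -0.58. Gpam, which starts glycerolipid synthesis, gave -0.23 ± 0.15 (limma adjusted p = 0.23), with knockout replicate 1 among the hetero values, and without that replicate it was lower and called (-0.38, limma adjusted p = 0.034; range over the alternatives 0.034 to 0.53). Srebf1, the gene of the factor that drives these enzymes, had signals of -0.92, -0.86 and -0.86 on the hetero arrays and -0.48, -0.51 and -0.52 on the knockout arrays. Srebf1 rose by 0.38 ± 0.03 (1.30-fold; limma adjusted p = 0.00018).

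Called in the same direction under all alternatives, spike-in scaling and every leave-one-out fit included, were 3 of the 4 members that rose (Scd1, Srebf1 and Fads2) and 4 of the 22 that fell (Tm7sf2, Elovl6, Acsl1 and Acss2). Over all genes, 2754 of the 4403 that rose and 1197 of the 5160 that fell met the same condition. These were 17.4% and 7.56% of all genes tested. Since spike-in scaling adds to every fold change, it could not turn a rise. More than 1 probe was kept for 14 members, giving 16 further probes, and all 16 had the sign of the main probe. Of the 14 that belonged to called genes, 9 were also called in a fit over 35427 single probes, in which 47.0% of probes were called.

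**Figure D4:**
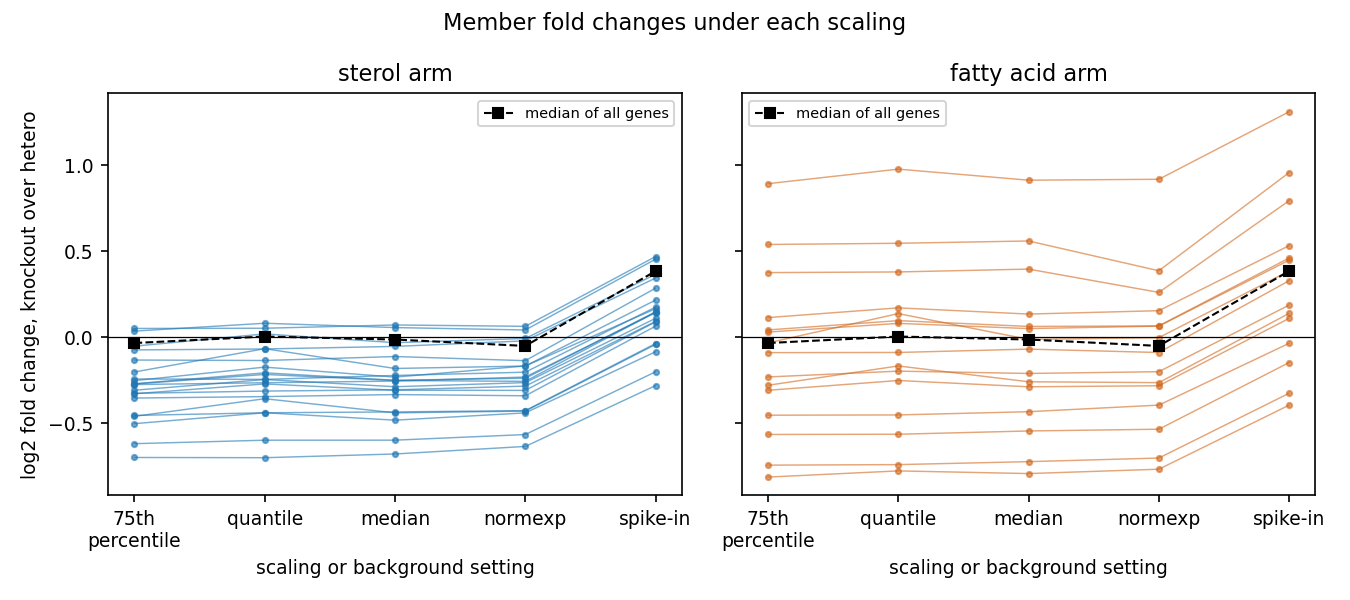
Log2 fold change, knockout over hetero (y axis), of each sterol gene (left) and fatty acid gene (right) under 5 scaling or background settings (x axis), with 1 line per gene and black squares for the median of all genes. Median and spike-in scaling shift every gene alike, while quantile scaling and normexp shift genes by unlike amounts (Scd2 from -0.03 to 0.14 with quantile scaling). Most sterol lines lie below the black squares in each setting. Spike-in scaling lifts all values by 0.42, the median of all genes to 0.38.

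Ratios between related members were taken for 5 pairs chosen with the members' values known, so they are a description. Within each array, the log2 ratio of Scd1 to Scd2 was 0.92 higher on knockout than on hetero arrays (1.90-fold), that of Srebf1 to Srebf2 0.70 higher (1.63-fold) and that of Fads2 to Fads1 0.51 higher (1.42-fold). For Elovl6 to Elovl5 the log2 ratio differed by -0.50, and for Acacb to Acaca by -0.50 (SD 0.18 on the knockout arrays, against 0.07 on the hetero arrays). The arrays of the genotypes did not overlap in these pairs. That held for 68.9% of single genes, and its share among ratios of other genes was not counted. Each pair gave p = 0.10 in a two-sided exact permutation test, the smallest that 3 against 3 arrays allow (0.10 also after Benjamini-Hochberg adjustment over the 5 pairs). As the pairs were chosen with values known and p can go no lower, the test adds nothing to the lack of overlap. A ratio within an array does not move with a constant scaling. With normexp correction the Srebf1 to Srebf2 ratio was 0.54 and the Fads2 to Fads1 ratio 0.32.

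**Figure D5:**
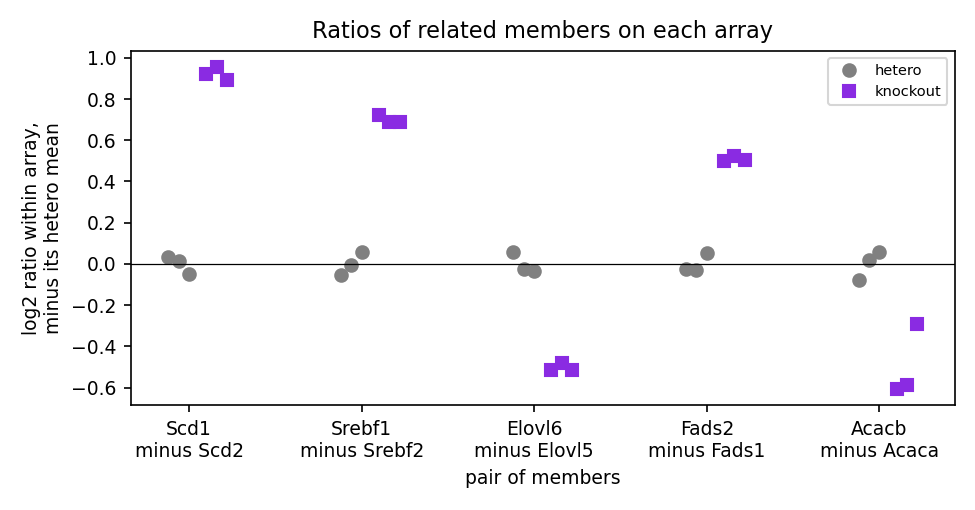
Log2 ratio of 2 related members within each array, minus the ratio's mean over the hetero arrays (y axis), for 5 pairs (x axis), with grey circles for hetero and purple squares for knockout arrays. In each pair the knockout squares lie apart from the circles, up for Scd1, Srebf1 and Fads2 and down for Elovl6 and Acacb, with the widest spread in Acacb against Acaca (knockout SD 0.18).

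Other genes of the pathway, none of them members, are given as counts from lists. Of 9 tested genes that process or turn over SREBPs, 3 rose and 2 fell (median 0.04). Mbtps1, the protease that makes the first cut, fell by 0.39 ± 0.03 and Insig2, the second retention protein, by 0.32 ± 0.02. With spike-in scaling 8 of the 9 were higher and 0 lower. Of 9 other sterol and isoprenoid enzymes, 1 rose and 4 fell (median -0.09; 8 higher and 1 lower with spike-in scaling), among them Acat2, the cytosolic thiolase that precedes Hmgcs1, which fell by 0.66 ± 0.05, Fdxr, which fell by 0.27 ± 0.03, and Nus1, which rose by 0.33 ± 0.02. Of 8 LXR and sterol efflux genes, 2 rose and 4 fell (median -0.04; 6 higher and 1 lower with spike-in scaling). Nr1h3, which encodes LXR-alpha, an activator of Srebf1 transcription, rose by 0.45 ± 0.03, its target Abcg1, a sterol exporter, by 0.53 ± 0.02, and Mylip, an LXR target that marks lipoprotein receptors for decay, fell by 0.54 ± 0.03.

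Of 21 tested genes of fatty acid synthesis outside the 15, 10 rose and 6 fell (median 0.13), and 18 rose and 2 fell with spike-in scaling. Elovl7 rose by 2.57 ± 0.06 and Thrsp, a lipogenic nuclear protein, by 2.47 ± 0.04, and Hacd2, a dehydratase of chain elongation, fell by 0.71 ± 0.03. Triglyceride and lipid droplet genes split evenly, 5 of 17 higher and 5 lower (median 0.04; 12 higher and 2 lower with spike-in scaling), with Pnpla2, the triglyceride lipase, 0.74 ± 0.03 higher, Plin4, a droplet coat protein, at -0.86 ± 0.06, and Dgat2, which makes triglyceride, at -0.58 ± 0.05. Of 7 genes listed for NADPH supply, not all of which make NADPH themselves, 3 rose and 1 fell (median 0.02, and 7 higher with spike-in scaling). Me3 was at 1.60 ± 0.03, Taldo1 at 0.43 ± 0.05 and Idh1 at -0.24 ± 0.03. Fatty acid oxidation, the opposing pathway, had 4 of 16 genes higher and 6 lower (median 0.01; 13 higher and 2 lower with spike-in scaling), and its carnitine transferases Cpt1a and Cpt2 fell by 0.49 ± 0.02 and 0.67 ± 0.03, while the thiolase Acaa2 rose by 0.39 ± 0.02.

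Epithelial and macrophage markers had median changes larger than that of any member. All 11 epithelial markers rose (median 3.33), and their summed level, in multiples of the 75th percentile signal, ran from 21.3 to 21.5 in hetero and from 188 to 191 in knockout spheres. Krt8, Krt7 and Krt19, the keratins of simple epithelium, rose by 3.25 ± 0.02, 3.65 ± 0.02 and 4.08 ± 0.03. Macrophage markers fell in 10 of 10 tested genes (median -1.73), with sums of 19.9 to 20.3 and 7.61 to 7.68, with Lyz2 at -1.95 ± 0.02, Ctss at -1.65 ± 0.02 and Adgre1 at -2.48 ± 0.03. Of 10 fibroblast markers 7 fell and 2 rose (median -0.53), with sums of 2249 to 2475 and 1721 to 1780, with Dpt at -1.61 ± 0.02, Pdgfra at -1.32 ± 0.03 and Pi16 at -1.30 ± 0.03. Of 6 endothelial markers 3 fell and 2 rose (median -0.04, sums of 21.9 to 22.7 and 16.5 to 17.7), with Kdr at -0.43 ± 0.04, Tek at -0.54 ± 0.06 and Vwf at 0.26 ± 0.04. Under spike-in scaling the 11 epithelial markers again rose, 8 of 10 macrophage markers fell and 0 rose, 5 of 10 fibroblast markers fell and 3 rose, and 4 endothelial markers rose and 0 fell.

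Adipocytes are known for high Scd1 and Acsl1 expression. Of 8 tested adipocyte markers 5 fell and 0 rose (median -0.42, sums of 154 to 159 on hetero and 68.9 to 72.2 on knockout arrays), with Lpl at -1.24 ± 0.03, Pparg at -0.68 ± 0.02 and Fabp4 at -0.27 ± 0.03. Adipoq, a defining marker, was well above background on 1 of 3 hetero and 2 of 3 knockout arrays, and Cidec and Cfd were not among the genes that could be tested. Lpl was the brightest of these markers (mean scaled log2 signal 7.17 in hetero and 5.93 in knockout), so the sums rest mostly on it. Acsl1 fell and Scd1 rose, and what adipocytes contribute to either was not tested. Milk genes were mixed, 4 of 8 higher and 2 lower (median 0.43), with Csn1s1, a casein, 6.32 ± 0.04 higher, Thrsp as above and Xdh, a protein of the milk fat globule, at -0.74 ± 0.03, and sums of 18.2 to 19.0 and 22.1 to 22.3. With spike-in scaling 2 adipocyte markers rose and 2 fell, and 7 milk genes rose and 1 fell. The part of these cell type differences in the results on the members was not tested.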

How the data were processed

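The authors deposited 1 scanner file per array, with linear spot intensities made with Agilent Feature Extraction, version 10.7.3.1 in the submitters' processing notes. The processed signal is already background-subtracted, per the file headers. Its log2 was taken here, control and outlier-flagged spots were left out, spots of a probe were averaged, and each array's 75th percentile was subtracted. A gene took its brightest RefSeq-named probe well above background on at least 3 of 6 arrays. The 3 hetero and 3 knockout arrays were compared with limma 3.58.1 in R 4.3.3 (lmFit, eBayes) and Benjamini-Hochberg adjustment over 15838 genes at a threshold of 0.05. The fit was also run on simulated arrays with far fewer changed genes than were called here, so that run does not bear on these calls. A second deposited table is the same signal over a constant per array (402 to 484; within 1% for 100% of probes; column medians 0.159 to 0.169). Alternatives covered scaling, background, filter, probe choice, eBayes options, that table, a replicate block and each replicate left out; normexp took median spot signals. Having 3 arrays a group, all on 1 slide, limits the precision.

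Members, lists, pairs and tests were chosen with earlier results of these data known. Every member is named, with per-array values for the 6 called members of each arm with the smallest p and for Srebf1, Srebf2, Insig1 and Fasn; other lists give up to 3 genes by smallest p, of which 1 is not reported here. Epcam, Krt14, Adipoq, Cidec, Cfd and the array values of Acacb go beyond that rule.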

Additional observations from a re-analysis of the deposited data

How the results depend on the processing

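Of the alternatives, spike-in scaling changed the most: it gave 14 sterol genes higher and 2 lower (median 0.1449) and 10 fatty acid genes higher and 3 lower (median 0.3287), and cut the share of lower genes among all calls from 54.0% to 9.95% (46.9% with quantile scaling). Under it, 18 members changed sign, by the construction of a constant shift: Pmvk 0.1104, Idi1 0.1481, Fdps 0.2164, Fdft1 0.1465, Sqle 0.0901, Lss 0.2856, Msmo1 0.1662, Nsdhl 0.1433, Hsd17b7 0.0650, Ebp 0.3662, Dhcr7 0.1758, Insig1 0.3444, Srebf2 0.0924, Fasn 0.3287, Acly 0.1391, Scd2 0.3851, Elovl5 0.1101 and Gpam 0.1874. Hmgcs1, Mvk, Mvd and Acacb kept their sign and lost their call. With quantile scaling Ebp was at 0.0199 and Scd2 at 0.1379, and the cause was not tested. The sterol median was -0.2444 with quantile scaling, -0.2522 with median scaling, -0.2465 with normexp, -0.2592 with probes averaged and -0.2383 with the second brightest probe. Leaving out each replicate gave sterol medians of -0.2879 to -0.2694 and fatty acid medians of -0.1670 to -0.0249; Fasn was at 0.0257 without hetero replicate 3 and Sc5d ran from -0.0003 without knockout replicate 3 to 0.0971 without knockout replicate 2. Genes called over all settings ran from 7088 (median scaling) to 12738 (spike-in scaling), within 1.5 times the 9563 reported. Fits with the replicate block called 8511 genes, 15 sterol genes lower and 3 fatty acid genes higher, losing Lss and Me1. Deviations of same-numbered arrays correlated at -0.12, -0.02 and -0.01, so the numbers were not taken to pair samples. Array number and signal over background limit small changes, with a median standard error of 0.030 for members and 0.041 for all genes.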
